A study of Bos taurus with 11 samples.

Results

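Cell cycle and DNA replication genes mark cells that are dividing or about to divide. The set comprised 34 genes, chosen by name: subunits of the replicative helicase, the polymerase clamp, enzymes that make DNA precursors, cyclins and their kinases, and proteins of the spindle, the kinetochore and the mitotic checkpoint. An array probe belonged to the set where its name in the scanner files was one of these symbols, with CDC2 counted as CDK1. By this rule 31 of the 34 genes had at least 1 probe, 74 probes in all of the 43653 on the array and 31 of the 17508 genes with a symbol. MKI67 and TOP2A, usually read as proliferation markers, and MCM2 were not analysed here, because no probe carried their names.

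The arrays held Cy3-labelled RNA from peripheral blood mononuclear cells, which are the lymphocytes and monocytes of the blood, from female cattle. There were 5 arrays of the high-altitude Ladakhi breed and 6 of the low-altitude Sahiwal breed, whose samples the labels call basal. The labels used here name no treatment or age, and each array is taken as 1 animal. Breed coincides with the labelled altitude, slide, scanner and extraction software, so that these cannot be told apart.

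Blood mononuclear cells are mostly resting, and only a small fraction of lymphocytes cycles at any time. When a lymphocyte leaves rest, cyclin D and then cyclin E with their kinases release the transcription of replication genes, the MCM helicase is loaded and fired, nucleotides are made by ribonucleotide reductase, thymidylate synthase and thymidine kinase, and PCNA clamps the polymerases to DNA. Cyclin A and B with CDK1, the Aurora and Polo kinases and the spindle proteins follow in mitosis, after which APC/C with CDC20 and UBE2C destroys the cyclins. In bulk samples, fewer cycling cells and less RNA per cycling cell cannot be told apart.

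The Ladakhi arrays were much dimmer. Of 43803 spots, 4243 to 6608 were well above background on the Ladakhi arrays and 17517 to 20574 on the Sahiwal arrays. A level is the log2 processed signal less the 75th percentile, on that array, of the 2705 probes that every one of the 11 arrays detected. On this scale the dimmest detected probe lay at a mean of -3.61 on the Ladakhi arrays (range -4.26 to -3.03) and at -8.24 on the Sahiwal arrays (range -8.91 to -7.49). Levels of different probes are not comparable with each other. A gene is called detected in a breed where 4 or more of the breed's arrays showed a probe of it well above background, and measured where its brightest probe met this in both breeds. T cell markers were above background in both breeds (5 of 8 genes in Ladakhi, 8 of 8 in Sahiwal), as were B cell markers (3 of 6 in Ladakhi, 5 of 6 in Sahiwal).

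The following 60-base probes are shown because they sample measured members and members with varied signal away from the brightest probe, apart from that of UBE2C, which is its brightest. Each holds an open frame on the probe strand, and where the interval is longer than 60 bases the probe joins separate stretches of the genome; exon and UTR annotation of this build was not used here. The sequences come from the scanner files, positions are on HGSC Btau_3.1 with the strand in brackets, and the choice was made after values were seen. Each is written 5′ to 3′ in lower case.
MCM3 chr23:25212322-25212381 (-): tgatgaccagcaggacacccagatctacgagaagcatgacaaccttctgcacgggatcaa
MCM4 chr14:19218941-19219692 (+): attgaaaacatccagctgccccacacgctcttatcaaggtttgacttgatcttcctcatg
MCM4 chr14:19221146-19221862 (+): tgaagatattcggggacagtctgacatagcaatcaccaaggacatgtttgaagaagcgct
MCM5 chr5:79109877-79110260 (+): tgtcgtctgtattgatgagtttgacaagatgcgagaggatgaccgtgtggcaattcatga
MCM5 chr5:79116351-79117364 (+): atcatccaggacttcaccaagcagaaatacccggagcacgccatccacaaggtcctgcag
MCM7 chr25:38453162-38453221 (+): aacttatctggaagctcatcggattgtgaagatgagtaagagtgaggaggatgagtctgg
RRM2 chr11:90265325-90265384 (-): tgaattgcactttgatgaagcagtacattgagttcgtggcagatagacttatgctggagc
CCNE1 chr18:39563330-39563695 (+): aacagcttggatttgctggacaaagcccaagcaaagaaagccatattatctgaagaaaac
TPX2 chr13:62156964-62163715 (+): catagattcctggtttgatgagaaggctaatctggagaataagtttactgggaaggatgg
UBE2C chr13:75364411-75364967 (+): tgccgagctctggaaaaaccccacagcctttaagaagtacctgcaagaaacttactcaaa
The UBE2C probe was above background on 3 Ladakhi arrays and 6 Sahiwal arrays. The downstream MCM5 probe was detected on 2 Ladakhi and 6 Sahiwal arrays, while its upstream partner was detected on 0 Ladakhi and 4 Sahiwal arrays. The MCM7 probe shown was detected on no array of either breed, although a probe of the same gene 3614 bases downstream was detected on 5 Ladakhi and 6 Sahiwal arrays.

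That difference along the transcript ran through the set. Among the 22 members with 2 or more probes at least 200 bases apart on 1 strand of 1 chromosome, the probe nearest the 3′ end was detected on more Sahiwal arrays than the probe farthest upstream in 17, on as many in 5 and on fewer in 0. Over the whole array the 3′ probe was on more Sahiwal arrays in 4061 of 8825 genes (46.0%), on as many in 4133 and on fewer in 631. A gene with neither probe detected counts as equal, so the lean to the 3′ end was not particular to the set. For these 22 members the 3′-most probe was detected on at least 4 Sahiwal arrays in 16 and the 5′-most probe in 6. The labelling was primed from the poly(A) end by a T7 promoter primer, per the labels. Of the 9 member probes detected on at least 4 Ladakhi arrays, 3 held the letters AATAAA or ATTAAA on the probe strand: those of MCM7, PLK1 and TK1. Of all 74 member probes 12 did (16.2%), as did 12.7% of all probes, detected or not. The share among all probes detected in Ladakhi was not worked out, so no excess is read from 3 of 9. The number of probes that a gene carries therefore did not stand for independent readings, and detection is given by the best probe of each gene.

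Detection of the 31 genes was incomplete in both breeds. In Ladakhi 8 members were detected, and 15.4% of all genes with a symbol were. In Sahiwal 24 members were detected, and 50.2% of all genes were. Of the 24 detected in Sahiwal, 8 were also detected in Ladakhi, near the share of 30.7% among all genes detected in Sahiwal. The remaining 16 members detected in Sahiwal all had a Sahiwal mean below the mean Ladakhi floor, so a Ladakhi level equal to or below the Sahiwal mean could not be told from background at this brightness, and no fold is given for the 13 of them that no Ladakhi array detected.

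The 8 genes detected in Ladakhi were PLK1, the Polo kinase of mitosis, and 7 genes of DNA synthesis: the helicase subunits MCM4, MCM5 and MCM7, the polymerase clamp PCNA, the large subunit of ribonucleotide reductase RRM1, thymidylate synthase TYMS and thymidine kinase TK1. All 8 were also on all 6 Sahiwal arrays. UBE2C, the conjugating enzyme of APC/C, and TPX2, which builds the spindle and activates AURKA, were each on 3 Ladakhi arrays and 6 Sahiwal arrays. RRM2, the small subunit of ribonucleotide reductase, was on 1 Ladakhi array and 6 Sahiwal arrays. On no Ladakhi array but on all 6 Sahiwal arrays were MCM3 and MCM6 (helicase), NUSAP1 (a microtubule-binding spindle protein) and ZWINT (kinetochore). CCNE1, cyclin E1, and the kinase AURKB were each on 0 Ladakhi and 5 Sahiwal arrays. The mitotic kinase CDK1, its cyclins CCNA2, CCNB1 and CCNB2, the APC/C activator CDC20, the Aurora kinase AURKA and the checkpoint kinase BUB1 were each on 0 Ladakhi and 4 Sahiwal arrays. Members with 2 Sahiwal arrays at their best probe were the checkpoint kinase BUB1B, the inhibitor of apoptosis and passenger protein BIRC5, the motor KIF20A and the kinetochore protein NDC80. CCNE2, the second cyclin E, the motor KIF11 and the kinetochore protein CENPF were detected on 0 of the 11 arrays.

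**Figure D1:**
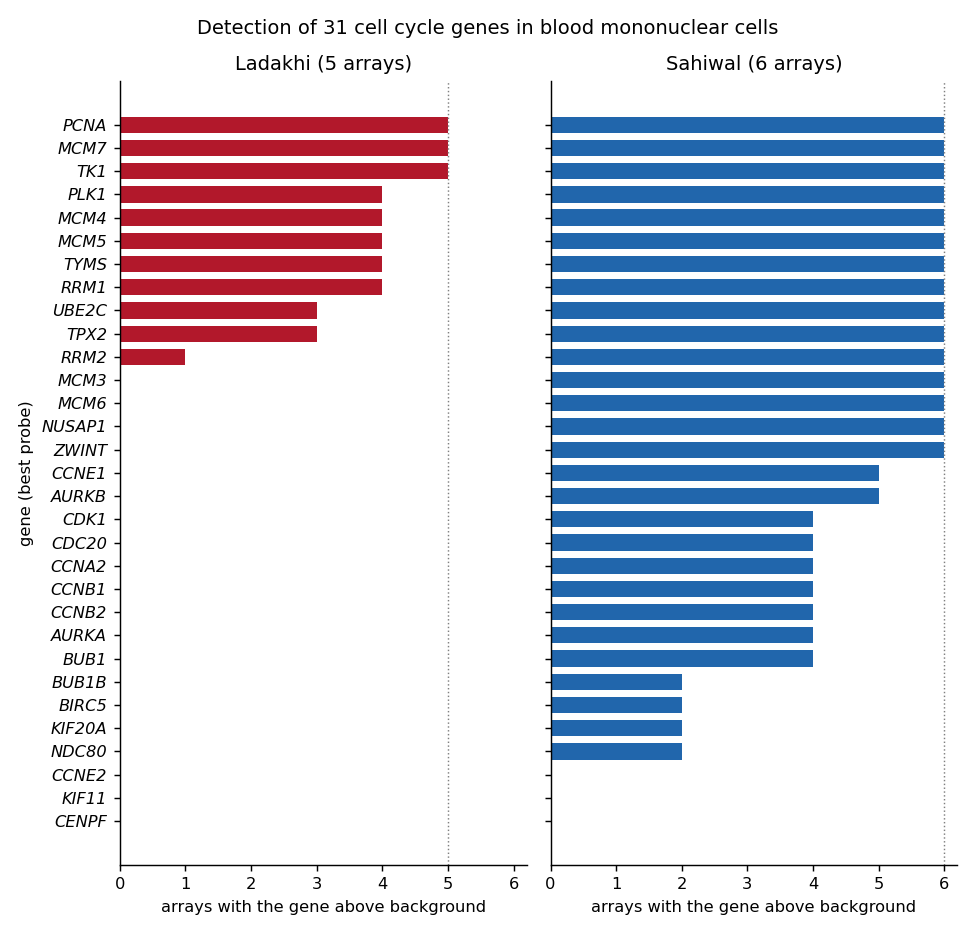
Number of arrays on which the best probe of each of the 31 members was well above background, Ladakhi at left (of 5) and Sahiwal at right (of 6); dotted lines mark all arrays. The 8 genes at the top reached at least 4 arrays in both breeds, while 3 genes at the bottom reached none.

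Set side by side by animal, detection of the members on each Ladakhi array followed the number of genes detected there only in part. The 5 arrays detected 5, 7, 11, 10 and 10 members (animals 1 to 5), against 18.2%, 16.1%, 24.0%, 17.6% and 24.1% of all genes. Mitosis genes made up 0, 1, 3, 3 and 3 of these, of 19 with a probe, and replication or G1/S genes 5, 6, 8, 7 and 7, of 12. Animal 1, on the same slide as animals 2 to 4, therefore showed no mitosis gene above background and 5 genes of DNA synthesis. The part of signal strength in this was not tested.

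For the 8 measured members no breed difference passed the test in the main fit. Limma, fitted over all 17866 tested probes with Benjamini-Hochberg adjustment, called 0 of the 8, and 0 had an unadjusted p under 0.05. Over all 2665 genes measured in both breeds the same fit called 31.6%, with 17.8% higher in Ladakhi and 13.8% lower. The breeds overlapped in all 8, whereas they did not overlap in 566 of the 2665. The median difference (Ladakhi minus Sahiwal) was 0.17 on the log2 scale over the 8 and 0.01 over the 2665. The split between higher and lower calls depends on the scaling: 475 higher and 368 lower here, 690 and 207 after quantile normalization, 765 and 102 after cyclic loess and 961 and 350 after normexp background correction, under which the median difference of measured probes was 0.17, 0.41 and 0.29, against -0.02 here. Under normexp 5 of the 8 members were called, all higher in Ladakhi. They were PLK1 (1.09, limma adjusted p = 0.000858), TYMS (0.95, 0.00377), MCM4 (0.81, 0.00514), PCNA (0.63, 0.0323) and TK1 (0.64, 0.0295).

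PLK1 had levels of -3.33, -2.72, -2.29, -1.85 and -2.62 in Ladakhi animals 1 to 5, against a lowest, median and highest of -3.96, -2.68 and -2.39 in Sahiwal. Only Ladakhi animal 1 was not above background, and the groups overlapped. The difference was 0.37 (SE 0.36, 95% interval -0.40 to 1.13, limma adjusted p = 0.43, n = 5 and 6). TK1, the salvage enzyme that rises sharply in S phase, had levels of -0.99, -1.26, -0.57, -0.19 and -0.20 in Ladakhi, against -1.65, -1.29 and -0.36 (lowest, median, highest) in Sahiwal. All 11 arrays detected it, and Sahiwal animal 1 was the highest of its breed while the other 5 lay between -1.65 and -1.18. It had a difference of 0.56 (SE 0.31, interval -0.11 to 1.23, limma adjusted p = 0.162), the largest positive difference of the 8, not past the threshold. After cyclic loess TK1 was called (limma adjusted p = 0.0252), as it was after quantile normalization (0.79, adjusted p = 0.0483) and normexp (0.64, adjusted p = 0.0295).

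TYMS, which methylates the uracil nucleotide to thymidylate, had levels of -4.29, -2.63, -2.54, -3.31 and -2.17 in Ladakhi, against -4.15, -3.16 and -2.42 (lowest, median, highest) in Sahiwal. Ladakhi animal 1 was not above background. The difference was 0.18 (SE 0.42, interval -0.72 to 1.09, limma adjusted p = 0.75). RRM1 had levels of -2.13, -3.57, -1.38, -0.74 and -1.04 in Ladakhi, against -2.42, -1.52 and -0.99 (lowest, median, highest) in Sahiwal. Animal 2 stands apart in this probe because it was not above background there, while a second RRM1 probe that overlaps the first gave -1.43 on that array, its highest Ladakhi level, and was above background. The 2 probes of the gene thus went different ways in that animal. The RRM1 difference was -0.21 (SE 0.46, interval -1.20 to 0.78, limma adjusted p = 0.737), and was 0.24 without Ladakhi animal 2.

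PCNA had levels of -2.91, -2.49, -2.03, -0.90 and -1.03 in Ladakhi, against -2.35, -2.07 and -1.58 (lowest, median, highest) in Sahiwal. Its spread was 0.89 in Ladakhi and 0.25 in Sahiwal (SD, n = 5 and 6). The difference was 0.16 (SE 0.37, interval -0.63 to 0.95, limma adjusted p = 0.747). The other 2 PCNA probes, at chr13:47615800-47615859 and chr13:47616054-47616113 on the minus strand, were detected on 2 Ladakhi and 6 Sahiwal arrays each, and both had their lowest Sahiwal level in animal 4 (-6.04 and -6.60), where the brightest probe gave -2.02 against its own Sahiwal mean of -2.03. These dimmer probes moved nearly in step over the Sahiwal animals, and the brightest departed from them.

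Of the helicase subunits, MCM7 varied least among the Ladakhi animals. MCM7 had levels of -1.60, -1.57, -1.60, -2.19 and -2.06 in Ladakhi, against -2.13, -1.62 and -1.37 (lowest, median, highest) in Sahiwal, with SDs of 0.30 and 0.29. Its difference was -0.13 (SE 0.26, interval -0.68 to 0.43, limma adjusted p = 0.721), the narrowest interval of the 8. MCM4 had levels of -2.97, -3.54, -1.89, -1.38 and -1.87 in Ladakhi, against -2.90, -2.76 and -2.20 in Sahiwal. Ladakhi animal 2 was not above background, and Ladakhi animals 3 to 5 lay above all 6 Sahiwal animals while animals 1 and 2 lay below them all. The MCM4 difference was 0.35 (SE 0.37, interval -0.45 to 1.14, limma adjusted p = 0.474). MCM5 had levels of -3.31, -2.16, -1.83, -2.56 and -1.09 in Ladakhi, against -2.09, -1.47 and -1.10 in Sahiwal. Ladakhi animal 1 was not above background, and animal 5 lay level with the highest Sahiwal animal. The MCM5 difference was -0.68 (SE 0.36, interval -1.45 to 0.10, limma adjusted p = 0.146), which passed the threshold without Ladakhi animal 5 (-0.95, adjusted p = 0.0362). Averaging all probes of a gene, dim ones included, turned MCM5 to 0.50 (limma adjusted p = 0.196) and MCM7 to 1.45 (limma adjusted p = 0.000196). That setting also moved the median difference over all measured genes to 0.40. Dim probes lie at a higher floor in Ladakhi, so it cannot decide a direction. MCM5 was below 0 in every other setting, but passed the threshold only without Ladakhi animal 5. MCM7 was also above 0 under quantile normalization, cyclic loess and normexp, so its direction is not firm.

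**Figure D2:**
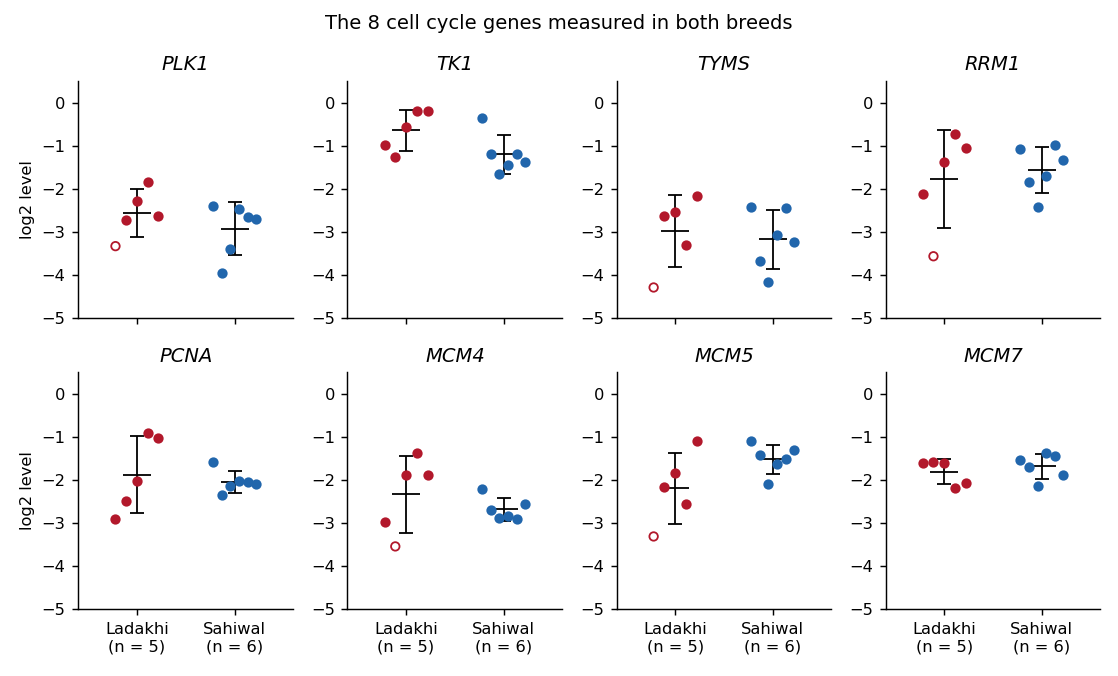
Log2 levels of the 8 measured genes, 1 point per array, with mean and SD as bars, Ladakhi (n = 5) left of Sahiwal (n = 6); open points were not above background. The breeds overlap in all 8 genes, and 7 of the 8 had the larger SD in Ladakhi. The share of all measured genes with a larger SD in Ladakhi was not worked out, so the count is not read as a trait of these genes.

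UBE2C, TPX2 and RRM2 had signal on fewer Ladakhi arrays, so their breed difference was not read from the fit. UBE2C had levels of -3.03, -2.70 and -2.74 on the Ladakhi arrays that detected it (animals 3 to 5), against -7.04, -5.34 and -4.71 (lowest, median, highest) in Sahiwal. TPX2 had levels of -2.50, -3.29 and -2.10 on the same Ladakhi arrays, against -5.49, -4.24 and -3.87 in Sahiwal. On all 3 of those arrays both genes lay above every Sahiwal animal, but a Ladakhi spot had to reach at least -4.26 to -3.03 to count as detected, which is near or above the Sahiwal levels of these genes. On Ladakhi arrays 1 and 2, where neither was above background, UBE2C read -5.59 and -5.34 and TPX2 -4.24 and -3.53. The second RRM2 probe was detected on Ladakhi array 3 alone, at -4.21, and ranged from -6.15 to -3.60 in Sahiwal.

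Within Sahiwal, the number of mitosis genes detected differed widely between animals. Each of the 6 arrays detected 10 or 11 of the 12 replication and G1/S members, while the number of mitosis members, of 19, was 17, 6, 5, 14, 16 and 14 in animals 1 to 6. All genes detected made up 55.5%, 50.2%, 50.2%, 52.3%, 54.5% and 51.3% on those arrays. Animals 2 and 3 thus detected 6 and 5 mitosis genes, and animal 6, with a like number of spots above background (17869 against 17853 and 17517), detected 14. CDK1, CDC20, CCNA2, CCNB1, CCNB2, AURKA and BUB1 were all detected in exactly animals 1, 4, 5 and 6. At their brightest probes these 7 had Sahiwal means of -8.23 (AURKA) to -6.97 (CDC20), near the Sahiwal floors of -8.91 to -7.49. The 10 replication members detected on all 6 arrays had means of -4.81 (RRM2) to -1.20 (TK1), well above those floors. The part of this distance in the contrast was not tested. Animals 1 and 2 shared a slide and animals 3 to 6 another, and on each slide 1 animal was low and the other or others high. The list of 34 further mitosis genes with a probe had 29, 19, 19, 20, 26 and 21 detected in animals 1 to 6, and the 37 further replication factors had 32, 28, 25, 29, 32 and 29. Leaving out Sahiwal animal 1, 4, 5 or 6 brought the members detected in Sahiwal to 17, since 7 genes stood on exactly those 4 arrays.

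**Figure D3:**
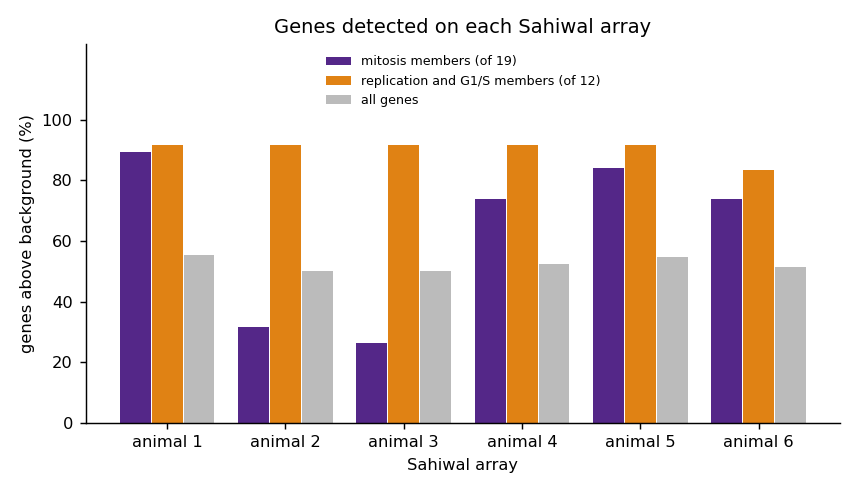
Percent of genes above background on each Sahiwal array, for the 19 mitosis members, the 12 replication and G1/S members and all 17508 genes, by animal. Mitosis genes fall to 6 and 5 detected in animals 2 and 3. Replication and G1/S members, most of which lie well above the floor, stay at 10 or 11 throughout.

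Levels of the 15 members detected on all 6 Sahiwal arrays were mostly lowest in animal 3. Their median SD was 0.54 on the log2 scale, against 0.46 over the 7795 genes detected on all 6. The 5 mitosis members had a median SD of 0.88 and the 10 members of DNA synthesis 0.38. The gap was smaller in the further lists, at 0.56 over 18 mitosis genes and 0.50 over 25 replication factors. The 5 mitosis members were also mostly dimmer, with Sahiwal means of -5.53 (UBE2C) to -2.93 (PLK1), against -4.81 (RRM2) to -1.20 (TK1) in the 10. The part of level in the spread was not tested. Members were lowest in animal 3 in 11 of 15 cases (29.1% of all such genes were) and lowest in animal 2 in 2 of 15 (23.2% of all genes). In animal 2 the median deviation from the gene mean was -0.56 for the mitosis members, -0.08 for the DNA synthesis members and -0.15 for all genes. The array of animal 3 was also the dimmest, with a 75th percentile of processed signal of 124 against 231 to 379 on the other 5 Sahiwal arrays. The part of this in the low level was not tested.

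UBE2C had levels of -4.71, -6.03, -7.04, -5.40, -5.28 and -4.73 in Sahiwal animals 1 to 6. RRM2 had -3.64, -5.47, -6.51, -4.61, -4.76 and -3.85. Both genes were lowest in animal 3 and second lowest in animal 2, with the highest levels in animals 1 and 6. NUSAP1 had -4.87, -6.08, -7.03, -4.81, -4.95 and -5.38 and TPX2 -3.98, -5.11, -5.49, -4.49, -3.87 and -3.95, again with animals 3 and 2 lowest. TYMS had -2.42, -3.68, -4.15, -3.08, -2.45 and -3.23, in the same order at the low end. ZWINT, the widest of these 15 with a range of 3.66, had -4.78, -4.47, -6.97, -3.79, -3.31 and -4.76. ZWINT departed from the pattern: it was low in animal 3 alone, and animal 2 lay above animal 1.

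The other members varied less. PLK1 ranged over 1.56, RRM1 over 1.43 and TK1 over 1.30 across the 6 Sahiwal animals, and the helicase subunits and PCNA over 0.70 (MCM4) to 1.03 (MCM3). MCM3 was highest in animal 6 and lowest in animal 4, unlike the other members. A further MCM3 probe, the sequence of which is printed above, stood at -4.04 in animal 6 and between -8.29 and -6.59 in the other 5. MCM6 was highest in animal 2.

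**Figure D4:**
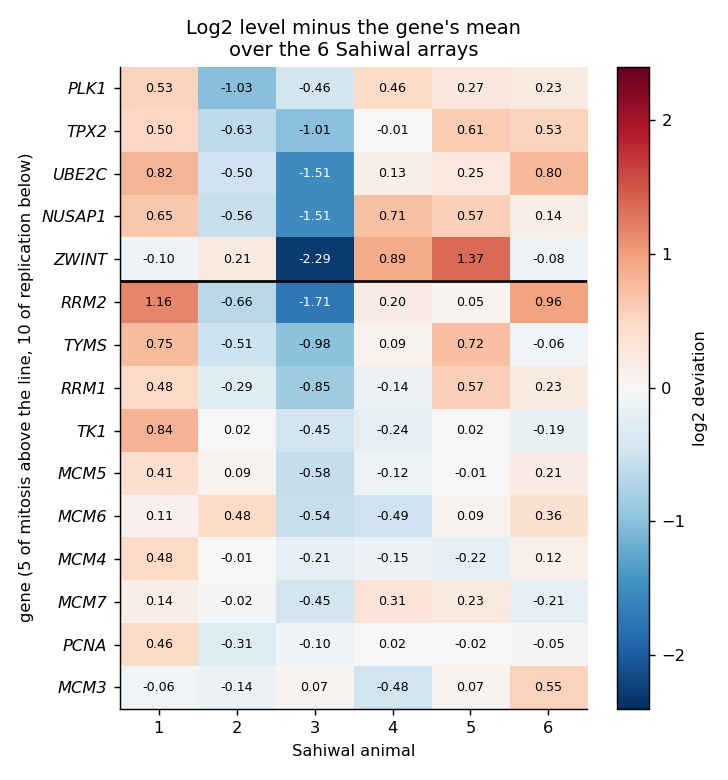
Log2 level of each of the 15 members minus its own mean over the 6 Sahiwal arrays, by animal; the 5 mitosis members are above the line and the 10 members of DNA synthesis below it. Animal 3 is lowest in 11 of the 15 genes, and the range runs from 0.70 for MCM4 to 3.66 for ZWINT.

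Pairwise correlations described how far the members moved together over the 6 Sahiwal animals. Between the 15 members the median Pearson r over 105 pairs was 0.57, against 0.09 over all pairs of genes detected on all 6 arrays (quartiles -0.32 and 0.48). The 10 pairs of mitosis members had a median of 0.79 and the 45 pairs of DNA synthesis members 0.51, and 9 of the 105 pairs were negative. These values share the same 6 arrays and their depth, and have no test. Under the percentile over all probes the median fell to 0.28, against 0.06 for all genes, and without animal 3 it was 0.40. RRM2 with TYMS, the only 1 of 6 planned pairs with both genes detected on all 6 arrays, had r = 0.797 and rho = 0.771 (n = 6 animals, exact permutation p = 0.0556 and 0.103, two-sided, unchanged by adjustment over 1 pair), and r = 0.298 over the 4 animals left without animals 1 and 3, those farthest from the median of RRM2. Leaving out the 2 extreme animals narrows the range of RRM2, so the lower r over 4 animals cannot show what the relation rests on.

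Cyclin E1 went a different way from most mitosis genes, though not in animal 1, where it was high with them. CCNE1 at chr18:39564231-39564290 had levels of -4.47, -2.86, -4.87, -7.62, -5.78 and -8.00 in Sahiwal animals 1 to 6, with animal 6 not above background. It was highest in animal 2, where most mitosis genes were low but ZWINT was not. Its upstream probe, printed above, was detected in animals 1 and 2 alone, at -8.32 and -6.27. CDKN1A, the inhibitor of cyclin-dependent kinases, had -1.99, 0.25, -0.14, -3.80, -4.55 and -3.14 in the same animals, so that animals 1 to 3 were highest for both genes. CCNE1 was not detected on any Ladakhi array, and CDKN1A was on 3 of them. Both were picked out after their values were seen, CDKN1A being also the gene with the widest Sahiwal range in the list of G1 regulators.

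**Figure D5:**
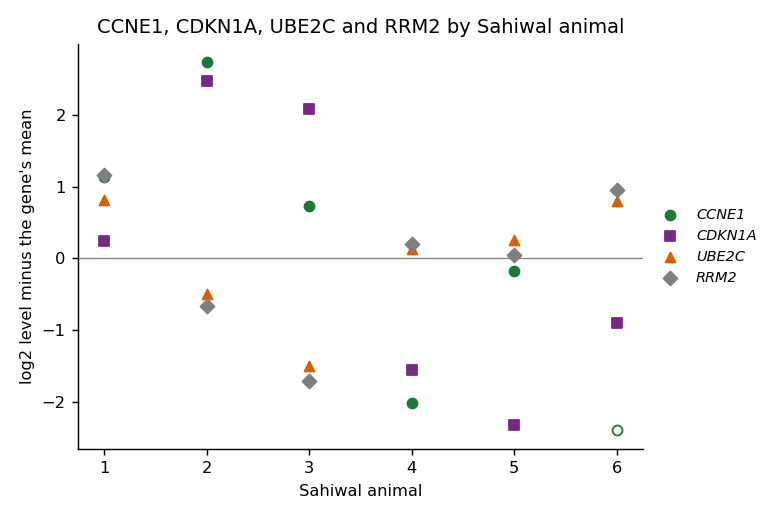
Log2 level minus the gene's mean over the 6 Sahiwal arrays, for CCNE1, CDKN1A, UBE2C and RRM2, by animal; the open point was not above background. CCNE1 and CDKN1A are highest in animal 2, where UBE2C and RRM2 are second lowest. In animal 1 each gene lies above its mean.

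Markers of the cells in the samples also varied between breeds and animals, and their part in the results was not tested. Summed linear relative level is given for each marker list. The T cell list spanned 4.40 to 7.69 in Ladakhi, against 1.84 to 4.40 in Sahiwal. The B cell list spanned 2.32 to 3.03 in Ladakhi, against 1.24 to 2.59 in Sahiwal. Both lymphocyte lists reached higher in Ladakhi. The T cell spans all but met at 4.40. In the B cell list the breeds overlapped: Sahiwal animals 1, 2 and 5 lay above Ladakhi animal 3, whose log2 sum was 1.21. For the NK and cytotoxic list (3 of 7 genes detected in Ladakhi, 5 of 7 in Sahiwal, GZMA on no array) the span was 2.11 to 3.9 in Ladakhi against 0.386 to 1.95 in Sahiwal. The monocyte list (2 of 7 in Ladakhi, 4 of 7 in Sahiwal, FCGR1A on no array) spanned 0.921 to 2.22 in Ladakhi, against 2.16 to 5.77 in Sahiwal. The neutrophil list (1 of 7 in Ladakhi, 5 of 7 in Sahiwal, CAMP on no array) spanned 0.439 to 1.33 in Ladakhi, against 1.38 to 11.2 in Sahiwal. The neutrophil list lay higher in Sahiwal, and the monocyte list reached higher there. In the monocyte list the breeds overlapped: Ladakhi animal 5, with a log2 sum of 1.15, lay above Sahiwal animal 1 at 1.11. Plasma cell genes (3 of 4 detected in each breed, SDC1 on no array) spanned 1.09 to 1.91 in Ladakhi, against 0.972 to 2.02 in Sahiwal. Red cell genes (1 of 7 in Ladakhi, 3 of 7 in Sahiwal, SLC4A1 and CA1 on no array) spanned 0.373 to 0.590 in Ladakhi, against 0.0817 to 1.63 in Sahiwal, and platelet genes (1 of 3 in Ladakhi, 3 of 3 in Sahiwal) 1.72 to 2.33 in Ladakhi, against 0.248 to 4.39 in Sahiwal. Over Sahiwal animals 1 to 6 the log2 sum of the T cell list was 2.13, 1.57, 2.14, 0.88, 1.71 and 1.80, and that of the B cell list 1.29, 1.33, 0.31, 0.98, 1.37 and 0.69, lowest in animal 3. The neutrophil list had 0.47, 1.24, 2.03, 2.84, 1.36 and 3.49 and the monocyte list 1.11, 1.40, 1.90, 1.91, 1.72 and 2.53. The platelet list had -2.01, 0.89, 2.13, 0.85, 0.09 and 2.07 and the red cell list -3.61, -0.68, 0.41, -0.71, -1.34 and 0.70. All 4 were lowest in animal 1, which was the highest for 8 of the 15 members, and platelet genes were highest in animal 3.

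Beyond the 34 members, 4 further lists covered replication factors, G1 regulators, other mitosis genes and genes that restrain proliferation. Of 37 replication factors with a probe, 5 were measured in both breeds and 0 passed the test. The replication protein A subunits RPA1 and RPA2 (single-strand binding), the ligase LIG1 and the polymerase subunit POLD2 had differences of -0.68, -0.57, -0.75 and -0.81 (limma adjusted p = 0.06, 0.125, 0.056 and 0.101), and the dUTPase DUT -0.14 (adjusted p = 0.79). Among these, 5 of 5 had the lower mean in Ladakhi, with a median of -0.68 against 0.01 over all measured genes, though DUT turned under quantile normalization (0.07) and cyclic loess (0.30) and RPA2 under normexp (0.06). RPA1 passed the threshold in 8 of 24 alternative settings and LIG1 in 7 in the same direction, while averaging their probes turned LIG1 to 1.15 and POLD2 to 0.97. That averaging moved the median difference over all measured genes from 0.01 to 0.40.

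Of 26 G1 regulators, 3 were measured. The rule of 4 arrays left out genes on fewer Ladakhi arrays, even where Sahiwal was bright. MYC was on 2 Ladakhi and 6 Sahiwal arrays, with means of -4.27 and -0.20. CDK2 was on 3 and 6 arrays, with means of -3.56 and -5.06. Its Ladakhi mean took in arrays that did not detect it, and its Sahiwal mean lay below the Ladakhi floor. No direction is therefore read for CDK2. Both were picked after values were seen. CDK4, the kinase of the D cyclins, was higher in Ladakhi at -2.01 ± 0.47 than in Sahiwal at -3.05 ± 0.52 (SD, n = 5 and 6; 2.06-fold, limma adjusted p = 0.0199). CCND2 differed by 0.43 (adjusted p = 0.337) and CCND3 by -0.70 (adjusted p = 0.255). The CDK4 call was lost without Ladakhi animal 4 (0.88, adjusted p = 0.0504). Of 34 further mitosis genes, 2 were measured: BUB3, a checkpoint protein, was lower at -3.42 ± 1.32 in Ladakhi than -1.86 ± 0.49 in Sahiwal (limma adjusted p = 0.0238), and the phosphatase CDC25B differed by 0.54 (adjusted p = 0.424). The BUB3 call was lost without Ladakhi animal 1 (-1.08, adjusted p = 0.057) or 3 (-1.44, adjusted p = 0.0509), and with quantile normalization, cyclic loess, normexp and the mean of its probes.

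Of 12 genes that restrain proliferation with a probe, 5 were measured, 1 rose and 2 fell, against 17.8% higher and 13.8% lower among all measured genes. CDKN1B, the inhibitor that holds resting lymphocytes out of the cycle, fell to -2.45 ± 0.18 in Ladakhi, against -0.97 ± 0.37 in Sahiwal (2.79-fold, limma adjusted p = 0.000839). BTG1, an antiproliferative gene of resting cells, fell to -0.93 ± 0.23, against 0.35 ± 0.51 (2.43-fold, adjusted p = 0.00385), a direction that the mean of its probes turned (0.11). TOB1, of the same family, rose to -2.87 ± 0.47 in Ladakhi, against -4.67 ± 0.73 in Sahiwal (3.46-fold, adjusted p = 0.00211). KLF2, a quiescence factor, differed by -1.50 (adjusted p = 0.056, past the threshold in 11 of 24 alternative settings) and CCNG1 by 0.50 (adjusted p = 0.31). Among genes not measured in both breeds but detected on all 6 Sahiwal arrays, the 2 widest of the mitosis list, HMMR and NCAPG, had levels of -4.89, -6.64, -7.00, -5.80, -4.13 and -4.77 and of -4.36, -6.71, -6.92, -6.71, -4.70 and -5.43 in animals 1 to 6, low in animals 2 and 3 as in the members, with NCAPG low in animal 4 too. Under the same limit the widest of the replication list were ORC4, of the origin recognition complex, with -5.02, -5.99, -6.76, -5.82, -4.57 and -5.79, and the origin-firing kinase CDC7 with -5.24, -6.72, -6.08, -6.19, -4.56 and -5.12. Both were highest in animal 5, with ORC4 lowest in animal 3 and CDC7 in animal 2. TFDP2, a partner of E2F factors, was with CDKN1A the widest of the G1 list under that limit, at -5.30, -6.24, -5.08, -4.29, -5.04 and -3.28. Among the restraining genes so limited BTG2, of the family of BTG1, had -2.03, -1.84, -2.55, -3.65, -4.73 and -1.87, and the factor KLF4 -4.38, -4.57, -3.90, -3.36, -4.72 and -2.78. Neither was lowest in animal 2 or 3: both were lowest in animal 5. Without that limit the ranges of DBF4 (4.19), ORC2 (3.99), DLGAP5 (3.65), CDKN2B (3.13) and FOXO3 (2.24) were among the 2 widest of their lists, with the gene above background on 2, 4, 3, 0 and 5 Sahiwal arrays.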

How the data were processed

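RNA of blood mononuclear cells from 5 Ladakhi and 6 Sahiwal cattle was read on 1-colour Agilent arrays. The deposited files hold spot intensity as Feature Extraction wrote it, per the file headers, in version 12.0.1.1 for Ladakhi and 9.5.3.1 for Sahiwal. A further deposited table holds log2 values, with no statement of how arrays were scaled. Every column in it matched an array of the same breed other than the one it is named after, so animal numbers, which are those of the scanner files, are unsettled. Its column medians are 1.60 to 2.32 in Ladakhi and -0.73 to 0.00 in Sahiwal, and it served as an alternative for the breed comparison.

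Control spots were dropped, spots marked as outliers counted as missing, and repeat spots of a probe averaged. Levels are log2 processed signal minus the 75th percentile of the 2705 probes that every one of the 11 arrays detected. A percentile over all probes lies at background in Ladakhi and was an alternative. Limma 3.58.1 in R 4.3.3 (lmFit and eBayes, two-sided) was run on the 17866 probes that 4 or more arrays of a breed showed above background, with an adjusted p of 0.05 as threshold, after a check on simulated data. A gene is represented by its brightest probe. Names for 28515 probes came from accessions in the assembly ARS-UCD2.0 table, and other probes kept the name in the files. Correlations used scipy 1.17.1. The labels number the samples without naming animals, so p-values measure the spread between these samples, which may in part be technical. Precision is limited by how few arrays there are and by the low signal of Ladakhi.

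The members and lists were chosen with earlier results of these data known. Values on every array are given for members on at least 1 Ladakhi array and for the 6 widest in Sahiwal, and other list genes are named where measured, or as the 2 widest in Sahiwal of the others in a list. Level values are given only for those detected on all 6 Sahiwal arrays, a limit added after values were seen. Probe sequences of several measured genes are not shown. CCNE1, MYC, CDK2, the further MCM3 and PCNA probes, and the printed sequences were chosen after values were seen.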

Additional observations from a re-analysis of the deposited data

Results flagged for a closer look

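TK1 in Sahiwal animal 1 stood at -0.36, apart from the other 5 Sahiwal animals, the nearest of which lay at -1.18. The gap took up 0.635 of the group's range, above the limit of 0.625 for 6 samples. Of 20 groups tested this way, 1 was picked out, and chance picks out about 1 in 20.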

How the results depend on the processing

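Of the 8 measured members, 0 were called, and 1 was under quantile normalization or cyclic loess (TK1). Under normexp 5 were called, all higher in Ladakhi. Averaging the probes of a gene gave 1 call (MCM7, reversed to 1.45, with a second probe that was above background on no array). Without single arrays there were 0 to 1. The other cell cycle genes gave 5 calls, 8 under normexp, with no filter, with dim spots at the floor or with the mean of probes, 9 with slide as a random block and 4 to 8 without single arrays, 8 without Ladakhi animal 4. The mean of probes also reversed POLD2 (0.97), LIG1 (1.15) and BTG1 (0.11), and turned MCM5 (0.50) and CCND3 (0.20), neither of which was called. In that setting the median difference over all measured genes was 0.40. Uncalled differences also changed sign in 2 alternatives for PCNA and TYMS, 3 for RRM1 and MCM7, 4 for DUT and 1 for RPA2. The causes were not tested. Members detected on every array numbered 3 in Ladakhi and 15 in Sahiwal. Members detected on at least 4 arrays, 8 in Ladakhi and 24 in Sahiwal, became 8 to 10 and 17 to 24 without single arrays. The median correlation was 0.28 under the percentile over all probes, 0.45 under quantile normalization and 0.40 to 0.69 without single animals. RRM2 with TYMS gave 0.551 to 0.916 without single animals, past the threshold without animal 5 or 6. With the animal number as a replicate block, the calls were 0 and 5, with CDK4 lost (0.93, adjusted p = 0.0747). Same-numbered animals did not deviate together (r from -0.05 to 0.02), so the number does not pair them. Dim signal limits Ladakhi readings to levels above about -3.61.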
